A study of Mus musculus with 16 samples.

Results

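The lysosomal genes described here are 38 of the 24411 genes in the count table, taken by symbol from a list of acid hydrolases, their activators, lysosomal membrane proteins, proton pump subunits and the lysosomal regulator TFEB. The list includes Glb1, which encodes the β-galactosidase behind the senescence-associated stain. By role they comprised 11 peptidases, 10 enzymes that degrade glycans, 6 lipid-degrading enzymes and activators, 6 membrane proteins, 3 subunits of the vacuolar ATPase, and the pair Tfeb and Grn.

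RNA was sequenced from muscle stem cells (MuSCs) sorted from mouse skeletal muscle, in 16 libraries. The 4 groups of 4 libraries were uninjured control, uninjured TRF2MuSC-cKO, control at 3 days post-injury (3 DPI) and TRF2MuSC-cKO at 3 DPI. In TRF2MuSC-cKO (cKO) mice the floxed gene for the telomere protein TRF2 is removed by a tamoxifen-activated Cre that is expressed from the Pax7 locus and so acts in Pax7-expressing cells. The sample records name the control genotype as Wildtype, and whether those controls carried the Cre was not given there. All mice were on a C57BL/6 background and tamoxifen was started in young adults. Muscle was injured by injecting 10 µl of notexin, a snake venom toxin that kills muscle fibres, into the tibialis anterior. MuSCs were gated as positive for α7-integrin and VCAM or CD34, and cells bearing CD45, CD31, CD11b or Sca1 were gated out. The records number the libraries within a group without saying that each number is a different animal, so the p-values measure the spread between these libraries, which may be partly technical.

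Lysosomes are acidic organelles in which hydrolases break down proteins, glycans and lipids delivered by endocytosis and autophagy, and the vacuolar ATPase keeps their lumen acidic. Many of their genes share a promoter sequence, the CLEAR element, which is bound by TFEB and related transcription factors when these enter the nucleus. MuSCs depend on autophagy to remain quiescent, and macrophages that clear damaged fibres are rich in lysosomes.

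Levels are given as CPM, the estimated counts of a gene scaled to a common library total, with TMM factors over all 16 libraries. A gene was called when the robust quasi-likelihood test of edgeR gave an adjusted p-value under 0.02 over all genes tested and the fold change was over 1.5. Library totals were 620406 to 1351095 counts. Replicate 3 of the libraries labelled cKO at 3 DPI held counts for 15387 genes, against 19996 or more in each of the other 15 libraries. Its mean correlation with the rest of its group was 0.466, against 0.625 to 0.654 for the other 3 libraries of that group and 0.795 to 0.88 in the other 3 groups. Terf2, which encodes TRF2, was at 64.8 to 91.3 CPM in uninjured control and 26.8 to 58.8 CPM in uninjured cKO libraries, a log2 fold change of -0.62 ± 0.27 (SE; adjusted p = 0.199), with no overlap. At 3 DPI the libraries labelled cKO ranged from 20.7 to 84.3 CPM and the control libraries from 34.2 to 48.8 CPM (log2 fold change 0.44, adjusted p = 0.755), so the label was not borne out there by this gene. The library names carry codes whose meaning is not given in the sources used here. In uninjured MuSCs each code held 1 genotype, so code and genotype cannot be told apart, whereas at 3 DPI code JH133 held replicates 1 and 2 of both genotypes.

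The promoter sequences are shown for the members that carry the longer form of the CLEAR element. A part of this element in the changes after injury was not tested. Of the 38 members, 33 had an entry in the RefSeq promoter table (GRCm38.p6), and Ctsb, Ctsh, Asah1, Npc1 and Atp6v0d2 had none. The 250 bases before each transcription start were searched on both strands for CACGTG, which reads the same on both, and for the longer GTCACGTG or its complement CACGTGAC, which contain it. The 6-base core was present in 12 of the 33 members (36.36%), against 1343 of 17224 genes of the count table with a promoter (7.80%). The longer form was present in 8 members (24.24%), against 473 genes (2.75%). Of 45 other lysosomal genes with a promoter, not among the 38, 11 (24.44%) held the core and 10 (22.22%) the longer form. These are matches of letters, not measured binding. Capitals mark the longer form, and each window is read 5′ to 3′ along the strand of the gene. The transcription starts are those of RefSeq, and GENCODE places some gene starts elsewhere. By GENCODE the windows of Ctsa, Ctsd and Lgmn lie inside the gene, and those of Mcoln1 and Naglu run across its start.

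Ctsa, chr2:164833750-164833772, plus strand: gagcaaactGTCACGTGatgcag
Ctsd, chr7:142387909-142387936, minus strand: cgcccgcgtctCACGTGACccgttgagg
Gla, chrX:134601183-134601210, minus strand: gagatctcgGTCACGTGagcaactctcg
Glb1, chr9:114401019-114401046, plus strand: tgcttctgaGTCACGTGgcctacagagg
Lamp1, chr8:13159122-13159149, plus strand: atgccgactggCACGTGACcacatcacg
Lgmn, chr12:102439125-102439152, minus strand: ggaatgtctGTCACGTGgtccattttat
Mcoln1, chr8:3500437-3500464, plus strand: gtcgcgcttGTCACGTGttcagttcagg
Naglu, chr11:101070010-101070037, plus strand: aaccttcagGTCACGTGgcccgaggtcg

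Over the 250 bases searched, Lamp1 held 4 copies of the core and Ctsd, Gla and Mcoln1 held 2 each, of which 1 is shown for each gene. The core without the longer form was found in Atp6v1a, Ctsf, Ctsl and Gaa.

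In uninjured control MuSCs the most abundant members per length of transcript were the tetraspanin Cd63, at 153.2 ± 17.4 CPM per kilobase of its longest coding transcript (SD, n = 4), and Psap, at 146.8 ± 15.5. Their difference was smaller than either SD on this scale, but in the deposited table rescaled for length Cd63 was at 478.1 ± 46.05 and Psap at 347.4 ± 22.41 rescaled counts, scaled to the same library total as CPM, which lay apart. The order rests on the longest coding transcript, and Ctsl, whose longest has 6168 bases, was 13 of 38 in uninjured control here and 4 of 38 in the rescaled table. Ctsz followed at 89.3 ± 8.65 CPM per kilobase, then Ctsd at 59.0 ± 6.09, Lamp1 at 57.8 ± 3.86 and Atp6v0c at 49.9 ± 10.8, where the last 3 lay within their spread. The lowest were Ctsc at 1.55 ± 0.69 and Atp6v0d2 at 1.72 ± 1.06 CPM per kilobase. At 3 DPI the control libraries were led by Psap at 2248 ± 283, Ctsd at 1752 ± 237, Ctsb at 896.1 ± 94.7 and Lgmn at 597.1 ± 59.7 CPM per kilobase, while Cd63 stood ninth. Together the 38 genes took, by library size alone, 0.243% of counts in uninjured control, 0.199% in uninjured cKO, 2.23% in control at 3 DPI and 1.81% in the libraries labelled cKO at 3 DPI.

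**Figure D1:**
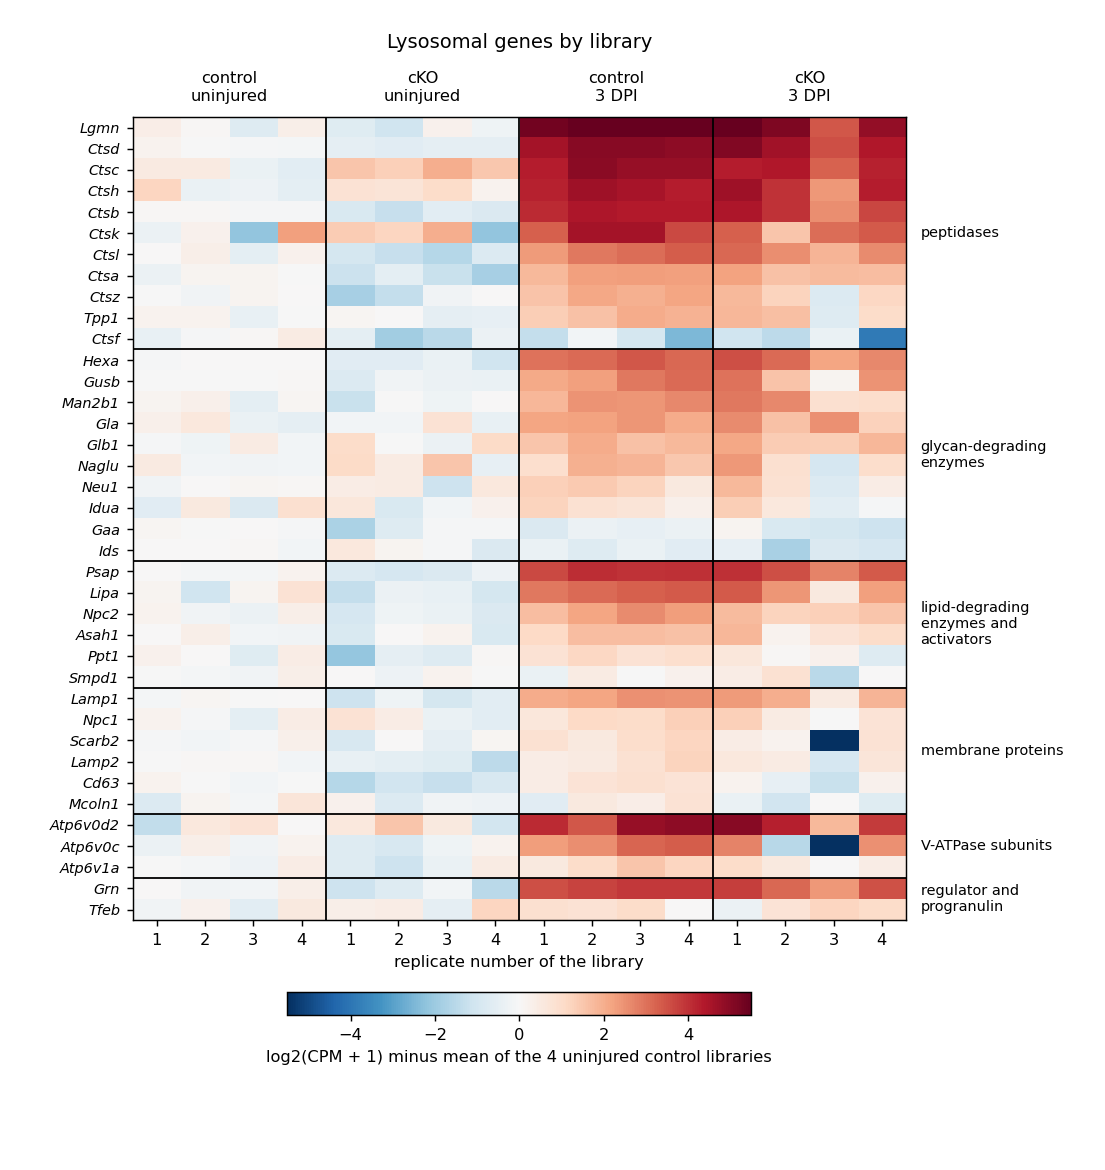
Heat map of log2(CPM + 1) of the 38 genes (rows, by role) in the 16 libraries (columns, by group and replicate number), each minus the mean of the 4 uninjured control libraries; the colour scale ends at 5.5 in both directions. Most rows are red in both groups at 3 DPI, replicate 3 of the libraries labelled cKO at 3 DPI is paler than the rest of its group in many rows (Scarb2 and Atp6v0c, at 0 CPM there, are dark blue), and Cd63, Ctsl, Ctsa and Ctsb are blue in all uninjured cKO libraries.

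The first comparison asked which lysosomal genes differ in uninjured MuSCs when TRF2 has been deleted. Of the 35 members tested, 4 were lower in cKO MuSCs and none was higher, and these were Cd63, Ctsl, Ctsa and Ctsb. Over all 14048 genes tested, 2.63% were called lower and 0.584% higher. Ctsh, Ctsk and Atp6v0d2 had too few counts to be tested. The estimate was below 0 for 26 of the 35, against 46.0% of all genes, and the median log2 fold change was -0.33, against 0.06 for all genes. At an unadjusted p under 0.05 there were 11 members lower and 2 higher, where 19.5% of all genes passed in either direction. The 4 calls depended on the fit: the robust limma fit called 1 of them, Cd63, and the table that rescales each library by transcript length called 0 members, where 11 genes in all were lower and 6 higher. Leaving out 1 library at a time left 1 to 4 calls, with 1 without control replicate 2 and 2 without control replicate 4, cKO replicate 1 or cKO replicate 4. Over 19 alternative settings the call of Cd63 was lost in 2, that of Ctsl in 4, that of Ctsa in 8 and that of Ctsb in 10, with adjusted p-values up to 0.0344, 0.0674, 0.122 and 0.109, and no estimate changed sign.

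Cd63, a tetraspanin of late endosomes and lysosomes, was at 196, 167, 150 and 166 CPM in the control libraries and 56.3, 81, 70.3 and 91.1 CPM in the cKO libraries. Every cKO library was below every control library, with a log2 fold change of -1.11 ± 0.22 (SE; edgeR adjusted p = 0.000716). Lamp1, the most abundant glycoprotein of the lysosomal membrane, was at 120, 140, 125 and 130 CPM in control and 58.7, 108, 66 and 84.4 CPM in cKO. Lamp2, which also serves chaperone-mediated autophagy, was at 131, 139, 139 and 120 CPM in control and 98.2, 90.2, 83.2 and 48.2 CPM in cKO. Neither Lamp1 (log2 fold change -0.62 ± 0.23, adjusted p = 0.103) nor Lamp2 (-0.64 ± 0.23, adjusted p = 0.0912) was called, although for each the groups did not overlap. Scarb2, the receptor that carries glucocerebrosidase to lysosomes, ranged from 61.7 to 82.2 CPM in control and 35.9 to 73.7 in cKO, with overlap. The cholesterol transporter Npc1 ranged from 53.4 to 102 and 50.9 to 133 CPM, and the calcium channel Mcoln1 from 16.4 to 45.3 and 16.4 to 33.5 CPM, and neither was called.

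Among the peptidases, Ctsl, a cysteine protease, was at 136, 168, 92.1 and 161 CPM in control and 68.3, 55.4, 44.5 and 79 CPM in cKO. The groups did not overlap, and the log2 fold change was -1.09 ± 0.24 (adjusted p = 0.0024). Ctsa, a carboxypeptidase that also stabilises β-galactosidase and neuraminidase, was at 85.3, 117, 119 and 105 CPM in control and 46.7, 72.8, 44.5 and 29.5 CPM in cKO, without overlap (log2 fold change -1.05 ± 0.26, adjusted p = 0.00871). Ctsb, a cysteine protease, was at 220, 222, 205 and 201 CPM in control, a narrow range, and 117, 88.2, 141 and 123 CPM in cKO. Its log2 fold change was -0.78 ± 0.20 (adjusted p = 0.013), again without overlap.

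The aspartyl protease Ctsd was at 145, 122, 119 and 116 CPM in control and 88.7, 81, 88.9 and 88.4 CPM in cKO. The groups did not overlap, yet the difference of -0.46 ± 0.21 on the log2 scale was not called (adjusted p = 0.225). Ctsc, which activates serine proteases of immune cells, went the other way, at 6.89, 6.95, 3.41 and 2.77 CPM in control and 15.6, 13.3, 21.5 and 14.7 CPM in cKO. It was the member with the largest estimate above 0, and each library held 3 to 15 counts of it (log2 fold change 1.73 ± 0.62, adjusted p = 0.0976). Ctsf had an estimate of -0.91 and Ctsz of -0.59, with overlap and no call, and Lgmn at 14.8 to 32.7 CPM in control and 11.3 to 30.1 in cKO and Tpp1 at 31.8 to 49.5 and 30.1 to 45.5 CPM also overlapped. Ctsh was at 3.69 to 14.6 CPM in control and 6.7 to 12.9 in cKO, and the collagen-degrading Ctsk was at 0 to 20.3 and 0 to 17.2 CPM. A count of 0 allows up to 3.41 CPM in control replicate 3 and 4.02 CPM in cKO replicate 4, the libraries where Ctsk had none.

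**Figure D2:**
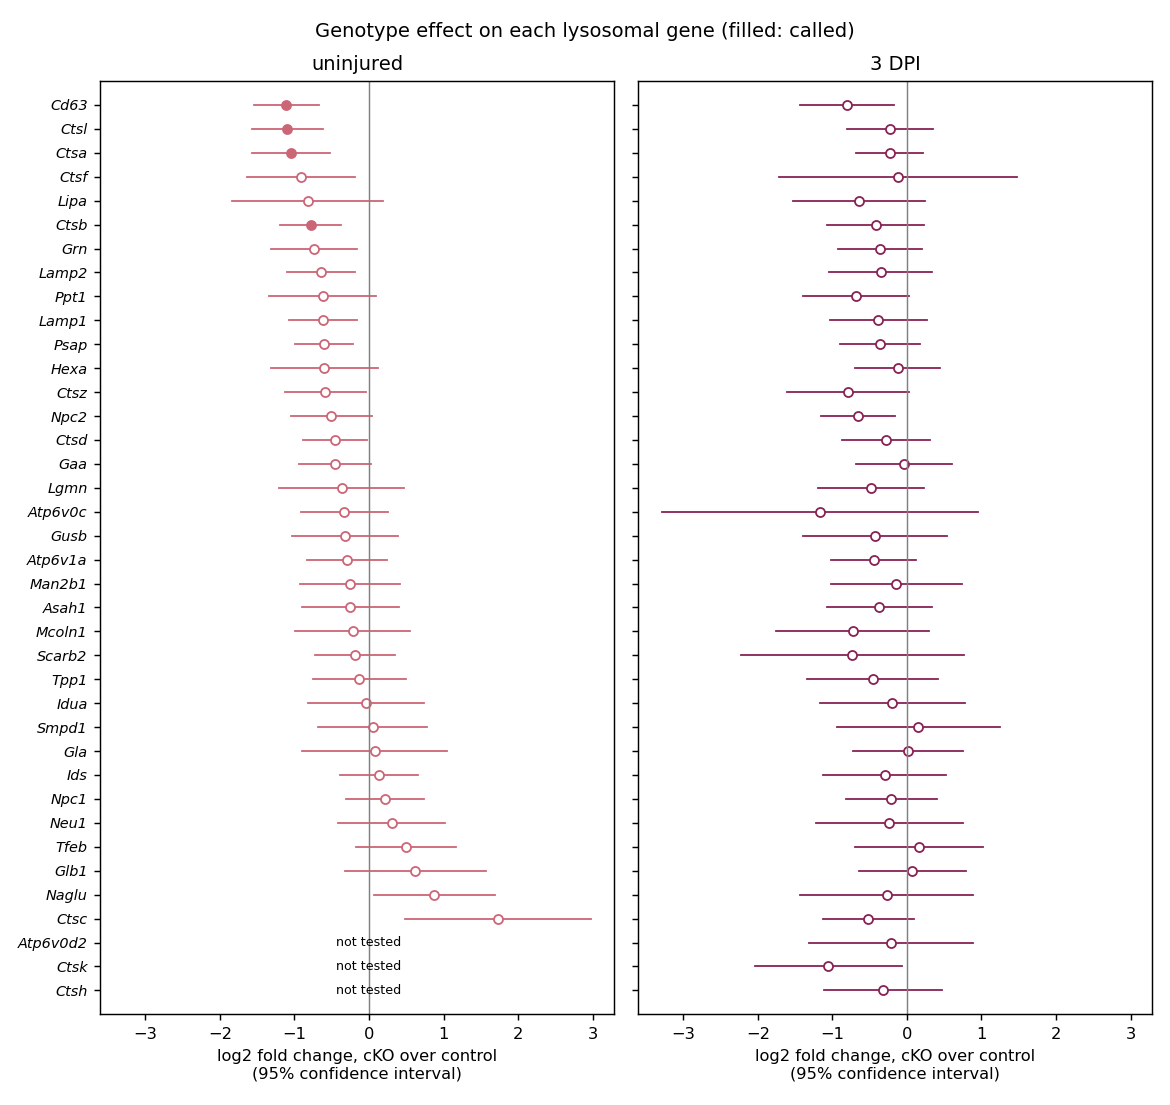
Log2 fold change of each of the 38 genes, cKO over control, in uninjured MuSCs (left) and at 3 DPI (right), with 95% confidence intervals from edgeR; filled points were called. On the left 4 points are filled, all below 0, and on the right none is filled, and 34 of the 38 points lie below 0.

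The glycan-degrading enzymes gave no call in uninjured MuSCs, and their median log2 fold change was 0.02. Glb1 was at 13.8, 12.2, 20.5 and 12.9 CPM in control and 30, 14.4, 11.5 and 30.8 CPM in cKO. Replicates 1 and 4 of cKO lay above every control library, and replicates 2 and 3 lay within the control range or below it. The log2 fold change of Glb1 was 0.62 ± 0.47 with a 95% confidence interval of -0.33 to 1.57 (adjusted p = 0.486), which holds 0. Glb1 overlaps Tmppe on the same strand, and their reads could have been split. Naglu, which degrades heparan sulfate, had an estimate of 0.88 (adjusted p = 0.22), with values of 15.9 to 26.7 CPM in control and 13.4 to 54.5 in cKO. Hexa at 33.6 to 36.4 CPM in control and 16.1 to 27.3 in cKO, Gusb at 31.8 to 34.2 and 19.2 to 28.7, and Gaa at 143 to 160 and 44.3 to 142 were lower in every cKO library, but their adjusted p-values were 0.356, 0.648 and 0.294. Gla, Idua, Ids, Man2b1 and Neu1, which remove sugars or sulfate from glycolipids, glycosaminoglycans and glycoproteins, had estimates of -0.26 to 0.30 and none was called.

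Psap, the precursor of the saposins that present lipids to hydrolases, was at 394, 358, 361 and 447 CPM in control and 230, 202, 221 and 320 CPM in cKO. The groups did not overlap, but the difference of -0.61 ± 0.19 on the log2 scale was not called (adjusted p = 0.0567). The acid lipase Lipa, the thioesterase Ppt1 and the sterol carrier Npc2 had estimates of -0.82, -0.62 and -0.51, with overlap. The ceramidase Asah1 and the sphingomyelinase Smpd1 had estimates of -0.25 and 0.05. The proton pump subunits Atp6v1a and Atp6v0c had estimates of -0.29 and -0.33, and Atp6v0d2, typical of osteoclasts and macrophages, was at 0.861 to 6.82 CPM in control and 1.34 to 12.3 in cKO.

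Tfeb was at 30.1, 41.7, 22.7 and 50.8 CPM in control and 44.3, 46.1, 24.4 and 80.4 CPM in cKO. The ranges overlapped and the estimate of 0.50 ± 0.33 was not called (adjusted p = 0.416). Grn, the precursor of granulins, was at 63.4 to 89.6 CPM in control and 25.5 to 64.5 in cKO, an overlap of a single library, with an estimate of -0.73 (adjusted p = 0.132). Over the 35 members, 11 were lower in cKO without overlap and 1, Ctsc, was higher without overlap, against 8.15% and 3.96% of all genes.

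Summed over the 38 genes, the level was 2766 ± 204 CPM in control and 1918 ± 139 CPM in cKO (SD, n = 4 each), and the ranges of 2505 to 3003 and 1785 to 2097 did not overlap. The log2 ratio of these means was -0.53, and it was -0.29 with library size alone, a scaling that raises the median over all genes by 0.19 on the log2 scale. The members' median minus that over all genes tested was -0.39 under TMM and -0.38 with library size alone. The MuSC markers moved the same way, since 8 of 10 were lower in cKO and their summed level was 2808 to 4579 CPM in control and 1734 to 2373 in cKO, and none was at 0 in any uninjured library. Of the 15 myeloid markers 8 could be tested and 0 were called by edgeR, with 1 at an unadjusted p under 0.05, but 7 of the 8 estimates were above 0, with a median of 0.53. Their sums of 110 to 198 CPM in control and 181 to 240 in cKO overlapped, whereas in the rescaled table those of 147 to 223 and 308 to 381 did not. Of the fibroadipogenic markers 1 of 5 tested, Dcn, was higher, all 5 estimates were above 0 and 2 had an unadjusted p under 0.05. Their sums of 361 to 611 and 440 to 882 CPM overlapped, and in the rescaled table those of 239.8 to 367.3 and 370.5 to 689.4 did not. None of the 4 Schwann markers was called, but all 4 estimates were above 0, 2 had an unadjusted p under 0.05, and their sums of 217 to 292.1 CPM in control and 328.5 to 455.3 in cKO did not overlap. The part of cell make-up in the lower lysosomal levels was not tested, and in such bulk libraries fewer cells of a type and less RNA per cell cannot be told apart.

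Of 61 other lysosomal genes, 56 were tested in uninjured MuSCs and 0 were called, with 4 at an unadjusted p under 0.05, 3 lower and 1 higher, and a median of -0.02. None of the 16 tested genes of the TFEB family and mTORC1 was called, and none of 25 autophagy genes was either. Of the latter, 7 were lower at an unadjusted p under 0.05 and their median was -0.46. Over all genes tested, 19.5% had an unadjusted p under 0.05 in either direction, and the median was 0.06. The vesicle GTPase Rab7 (-0.77, adjusted p = 0.043) and Gabarapl1 (-0.71, adjusted p = 0.0451) were the autophagy genes with the smallest p-values.

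**Figure D3:**
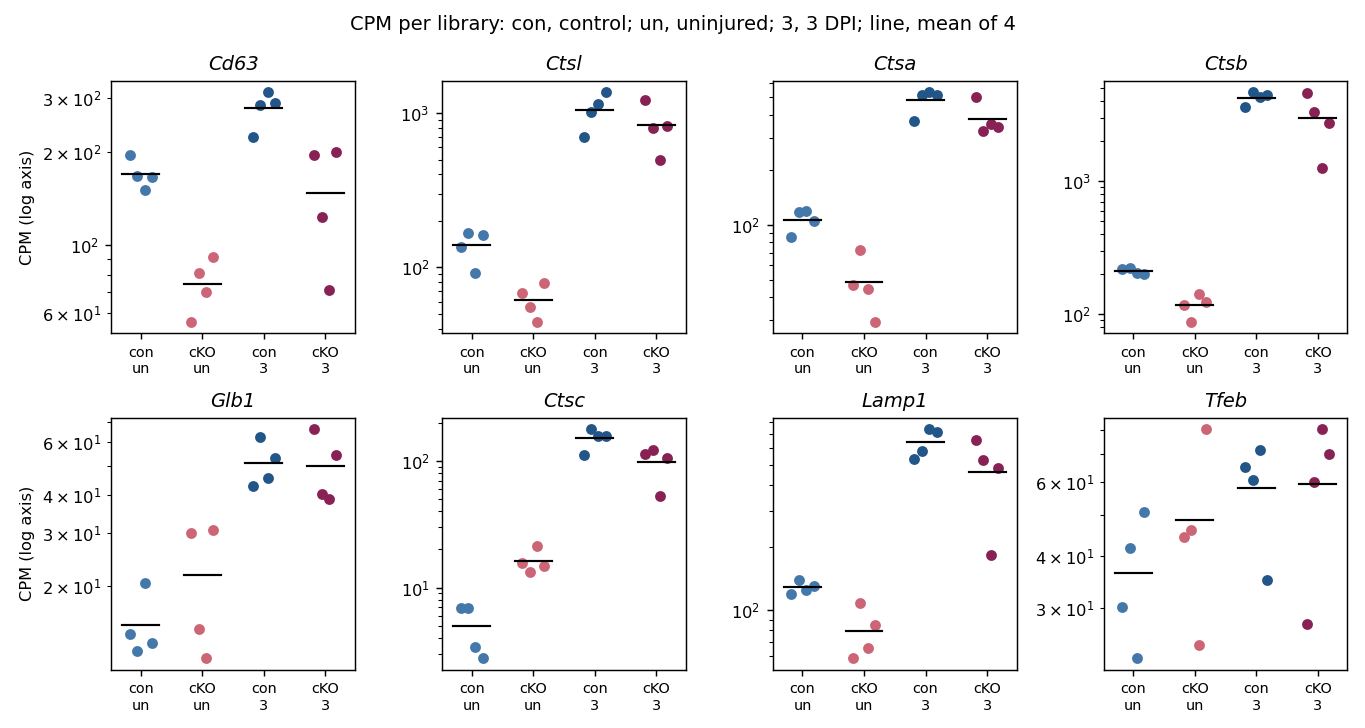
CPM on a log axis of 8 genes in each library, by group, with the mean of 4 libraries as a line. Cd63, Ctsl, Ctsa and Ctsb are lower in all uninjured cKO libraries than in all uninjured controls, Ctsc is higher, and Glb1 and Tfeb overlap between genotypes.

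The second comparison asked what injury does to these genes in control MuSCs. Of 38 members tested, 31 rose at 3 DPI and none fell, where 10.8% of all 15356 genes tested were called higher and 9.46% lower. Their median log2 fold change was 2.07, against 0.07 for all genes, and 4.75e-22 was the smallest adjusted p among them, for Lgmn and Ctsd. The 7 members without a call were Ctsf, Gaa, Idua, Ids, Smpd1, Mcoln1 and Tfeb. By role, 10 of 11 peptidases, 7 of 10 glycan-degrading enzymes, 5 of 6 lipid-degrading enzymes and activators, 5 of 6 membrane proteins, all 3 ATPase subunits and Grn rose. The count of 31 was 27 in the rescaled table, 22 with all 16 libraries in one fit and 28 to 31 leaving out a library. The third comparison asked the same in cKO MuSCs, where 17 of 38 members rose and none fell, with 2.43% of all 14578 genes called higher and 1.61% lower. The median log2 fold change there was 1.81. All 17 were also called in control MuSCs. The count of 17 was 11 in limma-voom, 12 in the rescaled table and 22 with all 16 libraries in one fit, and leaving out a library it was 13 to 22, with 22 without replicate 3 of the libraries labelled cKO at 3 DPI. The common biological coefficient of variation was 0.276 in the control comparison and 0.523 in the cKO comparison, and a difference between the 2 counts of calls was not tested.

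**Figure D4:**
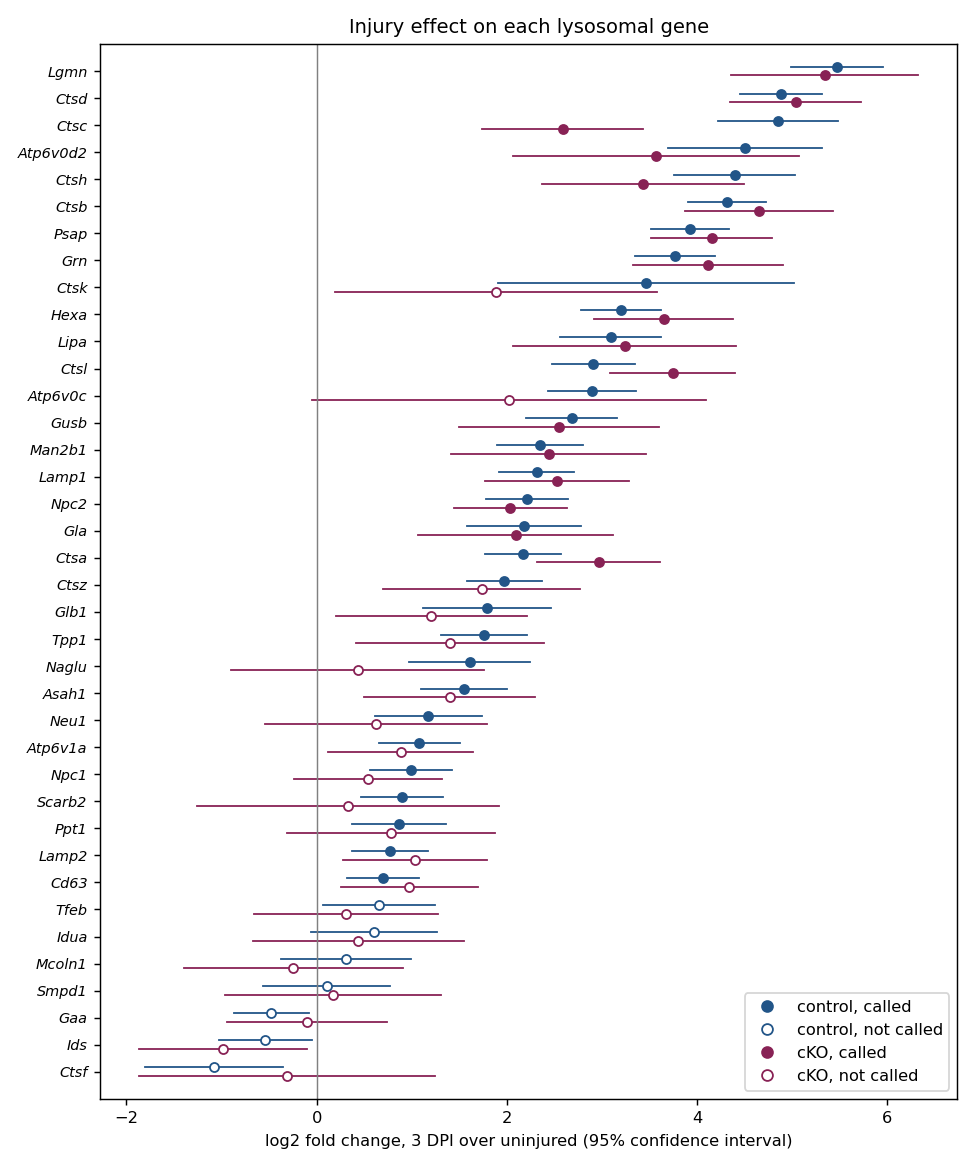
Log2 fold change of each of the 38 genes, 3 DPI over uninjured, in control (blue) and cKO (purple) MuSCs, with 95% confidence intervals from edgeR; filled points were called. The points run from 5.47 for Lgmn to -1.08 for Ctsf in control, intervals are wider in cKO, and the intervals of Ctsc do not overlap between genotypes.

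Lgmn, an asparaginyl endopeptidase that matures the cathepsins, was at 1030, 1200, 1320 and 1200 CPM in control and 1250, 905, 281 and 745 CPM in libraries labelled cKO at 3 DPI. Every injured library lay far above the uninjured levels of 32.7 CPM or less, with log2 fold changes of 5.47 ± 0.24 in control (adjusted p = 4.75e-22) and 5.34 ± 0.46 in cKO (adjusted p = 8.49e-06). Ctsd reached 3000, 4060, 4080 and 3770 CPM in control and 4260, 3070, 1450 and 2680 CPM in cKO, log2 fold changes of 4.88 ± 0.21 (adjusted p = 4.75e-22) and 5.04 ± 0.32 (adjusted p = 7.35e-07). Ctsb reached 3610, 4650, 4330 and 4420 CPM in control and 4580, 3320, 1260 and 2720 CPM in cKO. In both genes replicate 3 of the libraries labelled cKO was the lowest, and the rise of Ctsb was 4.32 ± 0.20 in control (adjusted p = 6.86e-21) and 4.65 ± 0.36 in cKO (adjusted p = 3.54e-06). Ctsl reached 698, 1010, 1150 and 1360 CPM in control and 1210, 799, 495 and 829 in cKO, with changes of 2.91 ± 0.22 (adjusted p = 1.18e-14) and 3.74 ± 0.31 (adjusted p = 5.72e-06).

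Ctsa reached 371, 514, 530 and 514 CPM in control and 499, 326, 355 and 341 in cKO, and rose by 2.17 ± 0.20 (adjusted p = 4.62e-12) and 2.97 ± 0.30 (adjusted p = 3.35e-05) on the log2 scale. Ctsc reached 111, 178, 158 and 157 CPM in control and 113, 121, 52.8 and 105 in cKO. From its lower start in control it rose by 4.85 ± 0.31 there (adjusted p = 1.15e-16) and by 2.59 ± 0.39 in cKO (adjusted p = 0.000863). Ctsh, an aminopeptidase, reached 126, 173, 159 and 137 CPM in control and 173, 105, 34.4 and 135 in cKO, and rose in both (4.39 ± 0.32, adjusted p = 3.45e-15, and 3.43 ± 0.50, adjusted p = 0.00056), although limma-voom did not call it in cKO (adjusted p = 0.0837). Ctsk reached 43.1, 106, 107 and 54.1 CPM in control and 43.5, 12, 36.7 and 46 in cKO, and was called in control (3.46 ± 0.69, adjusted p = 0.0041) and not in cKO (1.88 ± 0.79, adjusted p = 0.234), and the difference between the genotypes, the interaction, was -1.45 ± 1.02 (adjusted p = 0.94). The control call was lost without uninjured control replicate 1 or 2, with adjusted p-values of 0.0204 and 0.0336.

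Ctsz, a carboxypeptidase, reached 383, 563, 504 and 578 CPM in control, a rise of 1.97 ± 0.20 (adjusted p = 3.84e-11). In the libraries labelled cKO it was at 442, 300, 74.6 and 286 CPM, with replicate 3 inside the uninjured range, and was not called (1.73, adjusted p = 0.0509). The tripeptidase Tpp1 reached 110, 134, 181 and 165 CPM in control and 153, 135, 25.3 and 86.5 in cKO. It rose in control by 1.76 ± 0.23 (adjusted p = 2.73e-08) and was not called in cKO (adjusted p = 0.106). Ctsf was the exception among peptidases, at 17.8, 40.4, 22.9 and 7.5 CPM in injured against 33.6 to 61.9 in uninjured control libraries. Its estimate of -1.08 just missed the threshold (adjusted p = 0.0222), and other settings called it lower.

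Among glycan-degrading enzymes, Hexa, the α subunit of hexosaminidase, reached 288, 315, 388 and 320 CPM in control and 422, 313, 163 and 224 in cKO. It rose by 3.20 ± 0.21 (adjusted p = 2.22e-16) and 3.65 ± 0.34 (adjusted p = 1.64e-05). The β-glucuronidase Gusb reached 141, 160, 250 and 294 CPM in control and 264, 99.3, 36.7 and 188 in cKO, rising by 2.68 ± 0.24 (adjusted p = 1.5e-12) and 2.54 ± 0.49 (adjusted p = 0.00531). The mannosidase Man2b1 reached 146, 230, 225 and 257 CPM in control and 308, 263, 75.8 and 81 in cKO, rising by 2.35 ± 0.23 (adjusted p = 1.43e-11) and 2.44 ± 0.48 (adjusted p = 0.00616). The α-galactosidase Gla reached 77.3, 78, 92.6 and 69.1 CPM in control and 104, 52.4, 97.6 and 40.5 in cKO, rising by 2.18 ± 0.30 (adjusted p = 9.87e-08) and 2.09 ± 0.48 (adjusted p = 0.0161). In cKO the calls of these last 3 depended on the setting: that of Gusb was lost in 9 of 19 alternatives (adjusted p up to 0.0775), that of Man2b1 in 10 of 19 (up to 0.0922) and that of Gla in 10 of 18 (up to 0.0765). Each was lost in limma-voom, in the rescaled table and without any 1 of the 4 uninjured cKO libraries or replicate 1 at 3 DPI, and also without replicate 4 at 3 DPI for Gusb and replicate 2 at 3 DPI for Man2b1 and Gla. For all 4 of these enzymes every injured library lay above every uninjured library of the same genotype.

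Glb1 reached 43.1, 62.6, 45.8 and 53.3 CPM in control and 66.4, 40.4, 39 and 54.7 CPM in cKO at 3 DPI. All 8 injured libraries lay above all 8 uninjured ones, and the rise was called in control (1.79 ± 0.33, adjusted p = 3.5e-05) and not in cKO (1.21 ± 0.47, adjusted p = 0.19), where uninjured levels were more spread. Naglu reached 35.7, 74.1, 69.7 and 53.3 CPM in control and 101, 34.9, 9.18 and 37.2 in cKO. It rose in control (1.61 ± 0.32, adjusted p = 8.15e-05) and was at 0.43 (adjusted p = 0.822) in cKO. The sialidase Neu1 reached 74.3, 81.8, 71.7 and 44.1 CPM in control and 106, 54.5, 17.2 and 39.4 in cKO, with changes of 1.17 ± 0.28 (adjusted p = 0.000976) and 0.62 (adjusted p = 0.665). Gaa, which degrades glycogen, was at 86.2 to 119 CPM in injured control, below all 4 uninjured libraries at 143 to 160 CPM, but its estimate of -0.48 was not called (adjusted p = 0.0742). Ids was likewise below its uninjured levels in every injured control library (-0.54, adjusted p = 0.109), and Idua was at 34.2 to 66.9 CPM with an estimate of 0.60 (adjusted p = 0.206).

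Psap had the highest CPM of all members at 3 DPI, at 4860, 6500, 6200 and 6330 in control and 6250, 4500, 2590 and 4020 in cKO. It rose by 3.93 ± 0.20 (adjusted p = 8.83e-20) and 4.15 ± 0.30 (adjusted p = 1.44e-06). Lipa reached 153, 176, 200 and 213 CPM in control and 212, 110, 28.7 and 97.5 in cKO, rising by 3.09 ± 0.26 (adjusted p = 5.48e-13) and 3.24 ± 0.55 (adjusted p = 0.00193). Npc2 reached 227, 321, 434 and 347 CPM in control and 235, 165, 177 and 204 in cKO, rising by 2.21 ± 0.21 (adjusted p = 1.56e-11) and 2.04 ± 0.28 (adjusted p = 0.000347). These 3 were the lipid-degrading enzymes and activators called in both genotypes, although the call of Lipa in cKO was lost in 3 of 18 alternatives (adjusted p up to 0.131), limma-voom and the rescaled table among them. Asah1 at 95.1, 144, 146 and 138 CPM (1.55 ± 0.23, adjusted p = 4.43e-07) and Ppt1 at 80.2, 101, 78.6 and 86.6 CPM (0.86 ± 0.25, adjusted p = 0.00616) rose in control. In cKO they were at 50.2 to 161 and 27.4 to 71 CPM and were not called (adjusted p = 0.0714 and 0.527), and the test of the difference between the genotypes called neither (interaction estimates -0.04 and 0.02, adjusted p = 0.994 and 0.997). The control call of Ppt1 was lost in 5 of 19 alternatives, namely the rescaled table (adjusted p = 0.0416), all 16 libraries in one fit (0.196, the highest) and without uninjured replicate 2, uninjured replicate 3 or injured replicate 2. Smpd1 was at 20.8 to 37.5 CPM in injured and 23.9 to 34.2 in uninjured control libraries, and its estimates were 0.10 in control and 0.17 in cKO.

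Among membrane proteins, Lamp1 reached 533, 582, 739 and 716 CPM in control and 657, 523, 184 and 479 in cKO, and rose in both (2.31 ± 0.19, adjusted p = 3.76e-13, and 2.53 ± 0.35, adjusted p = 0.000421). Lamp2 rose less, to 174, 185, 235 and 312 CPM in control (0.77 ± 0.20, adjusted p = 0.00239), and was at 197, 180, 68.9 and 212 CPM in cKO (1.03 ± 0.35, adjusted p = 0.122). Replicate 3 of the libraries labelled cKO lay inside the uninjured range of Lamp2, and without it the adjusted p was 0.000598. Cd63 reached 224, 284, 312 and 289 CPM in control and 196, 123, 71.2 and 200 in cKO, with changes of 0.70 ± 0.19 (adjusted p = 0.00349) and 0.98 ± 0.33 (adjusted p = 0.126). Npc1 at 119, 167, 155 and 190 CPM (0.99 ± 0.21, adjusted p = 0.000313) and Scarb2 at 123, 99.2, 134 and 153 CPM (0.90 ± 0.21, adjusted p = 0.00105) rose in control. In cKO Npc1 was at 75.8 to 195 CPM (adjusted p = 0.537), and Scarb2 was at 90.4, 77.5, 0 and 119 CPM (adjusted p = 0.903), where the 0 allows up to 3.44 CPM. The control calls of Lamp2 and Cd63 were each lost in 4 of 19 alternatives, with adjusted p-values up to 0.11 and 0.115. Both were lost in the rescaled table and with all 16 libraries in one fit, Lamp2 also in the robust limma fit and without injured replicate 4, and Cd63 also without uninjured replicate 2 or injured replicate 3. Mcoln1 was at 17.8 to 50 CPM in control, overlapping its uninjured range, with an estimate of 0.31.

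The 3 subunits of the proton pump rose in control MuSCs. Atp6v0d2 reached 80.2, 49.1, 127 and 139 CPM in control and 148, 90.5, 14.9 and 66.8 in cKO, and was called in both (4.50 ± 0.40, adjusted p = 4.66e-12, and 3.57 ± 0.70, adjusted p = 0.00611). Its call in cKO was lost in 8 of 18 alternatives (adjusted p up to 0.321, in limma-voom), including the rescaled table and the fits without uninjured cKO replicate 1, 3 or 4 or injured cKO replicate 1 or 2. Atp6v1a reached 135, 187, 267 and 209 CPM in control (1.08 ± 0.21, adjusted p = 7.33e-05) and 190, 133, 95.3 and 124 in cKO (0.89, adjusted p = 0.209). Atp6v0c, part of the ring that carries protons, reached 290, 349, 538 and 592 CPM in control (2.90 ± 0.23, adjusted p = 5.44e-14). In the libraries labelled cKO it was at 389, 19.6, 0 and 335 CPM, with replicates 2 and 3 far below the others. Those 2 libraries held 232 and 73 counts of Atp6v0c-ps2, a processed pseudogene with 0 counts in the other 14 libraries, against 18 and 0 counts of Atp6v0c. The estimate in cKO was 2.02 (adjusted p = 0.323) for Atp6v0c as deposited, and -0.14 in limma-voom (adjusted p = 0.971). With the pseudogene's counts added, an alternative chosen after seeing the data, the edgeR estimate was 2.58 (adjusted p = 0.00145).

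Grn reached 847, 948, 1090 and 1090 CPM in control and 1030, 643, 383 and 837 in cKO, and rose in both (3.77 ± 0.21, adjusted p = 9.58e-19, and 4.11 ± 0.37, adjusted p = 1.2e-05). Tfeb was at 65.4, 60.6, 71.7 and 35 CPM in control and 27.5, 60, 80.4 and 70.1 in cKO. Its ranges overlapped the uninjured ones in both genotypes, and its estimates were 0.66 ± 0.29 in control (95% confidence interval 0.07 to 1.25, adjusted p = 0.102) and 0.31 ± 0.45 in cKO (adjusted p = 0.828). Among the 8 members with the longer CLEAR form, 7 rose in control, all but Mcoln1, as did 31 of the 38 overall.

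Related genes that are not members were listed alongside. Of the other lysosomal genes tested, 37 of 60 rose and 2, Igf2r and Tpcn1, fell in control MuSCs after injury, with a median of 1.23. Among those of smallest p were Cd68 (log2 fold change 6.55, adjusted p = 4.75e-22), a macrophage lysosomal glycoprotein, Laptm5 (5.20, adjusted p = 2.34e-20), Atp6v1b2 (2.63, adjusted p = 2.4e-12) and Ctss (8.49, adjusted p = 5.15e-12). Igf2r, the receptor that delivers hydrolases to lysosomes, was at -0.60 and Tpcn1 at -0.81. In cKO 8 of 57 rose, among them Ctss, Cd68 and Laptm5, where 2.43% of all genes were called higher. Of the TFEB family and mTORC1 genes, 5 of 19 rose in control (Mitf by 1.83, Tfec by 3.85, Fnip2 by 1.79, Rragc by 1.07 and Lamtor1 by 1.34 on the log2 scale) and Zkscan3, described as a repressor of autophagy genes, fell by 1.43. Of 25 autophagy genes 5 rose, among them Gabarap (1.18) and Rab7 (1.04), and 3 fell, namely the kinase Ulk1 (-0.99), Gabarapl1 (-0.83) and Wipi2 (-0.86). Over all genes tested in control, 10.8% were called higher and 9.46% lower. The median of the autophagy genes was 0.04, against 0.07 for all genes.

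After injury in control, myeloid and fibroadipogenic markers rose with the lysosomal genes, while endothelial and Schwann markers gave no call. All 15 myeloid markers rose in the control libraries (median log2 fold change 4.75) and 12 of 15 in the cKO libraries (3.62). Which cells in the sorted samples carried this RNA was not tested. Their summed level was 110 to 198 CPM in uninjured control, 181 to 240 in uninjured cKO, 5194 to 6968 in control at 3 DPI and 1946 to 6229 in libraries labelled cKO at 3 DPI. Among them were Ptprc, which encodes the gated-out CD45, at 10.2 to 16.5 CPM in uninjured and 188 to 289 in injured control libraries, and Itgam, which encodes CD11b. C1qb and Tyrobp were at 0 in at least 1 uninjured control library and Lyz2 and C1qc in at least 1 uninjured cKO library, while none of the 15 was at 0 in any injured library. The 6 fibroadipogenic markers rose in control and 1 of 6 in cKO. Of the 10 MuSC markers 9 fell in control and 6 in cKO, with sums of 787 to 1204 and 387 to 621 CPM at 3 DPI.

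Library by library, the summed level of the 38 genes at 3 DPI was 18560, 24070, 24680 and 24580 CPM in control and 24510, 17010, 8605 and 15820 CPM in the libraries labelled cKO. The summed myeloid level was 5194, 6851, 6968 and 6384 CPM and 6229, 4681, 1946 and 4074 CPM in the same order. The quotient of the lysosomal to the myeloid sum was 3.51 to 3.85 in control and 3.63 to 4.42 in cKO at 3 DPI, against 12.7 to 25.2 and 8.16 to 11.6 in uninjured libraries. The lowest lysosomal sum at 3 DPI and the lowest myeloid sum thus came from the same library, replicate 3 labelled cKO. The part of myeloid RNA in the rise of the lysosomal genes was not tested. The library codes of injured and uninjured libraries coincide only in part, and code and injury were not separated.

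**Figure D5:**
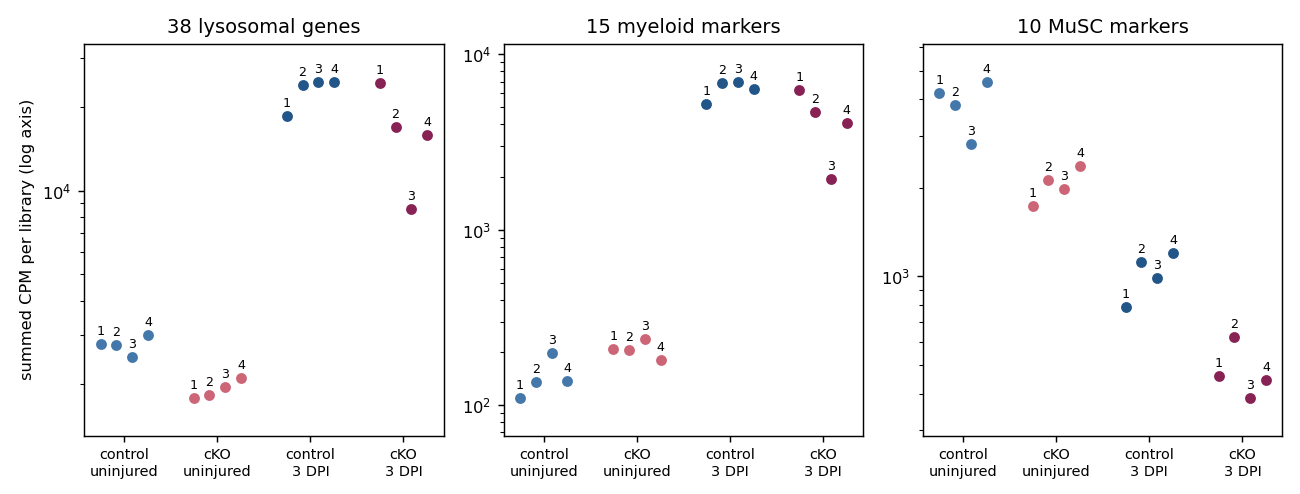
Summed CPM per library on log axes for the 38 lysosomal genes, 15 myeloid markers and 10 MuSC markers, by group, with the replicate number beside each point. Lysosomal and myeloid sums are higher in all 8 libraries at 3 DPI than in all 8 uninjured libraries, MuSC marker sums are lower, and replicate 3 of cKO at 3 DPI has the lowest lysosomal and myeloid sums of the injured libraries.

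The fourth comparison asked whether the genotypes differ at 3 DPI. None of the 38 members was called by edgeR, and none of all 14559 genes was (0%). At an unadjusted p under 0.05 there were 3 members, all lower, against 9.36% of all genes. Over all genes the robust limma fit called 18 lower and 10 higher and DESeq2 17 and 5, with no member among them. The members with the smallest p-values were Npc2 (log2 fold change -0.65 ± 0.23, adjusted p = 0.46) and Cd63 (-0.81 ± 0.29, adjusted p = 0.465), and Ctsk had -1.05 ± 0.45 (adjusted p = 0.522). Cd63 at 71.2 to 200 CPM in libraries labelled cKO and 224 to 312 in control did not overlap, nor did Ppt1, and these 2 of 38 stand against 5.75% of all genes that were lower without overlap.

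The members' median at 3 DPI was -0.36, with 34 of 38 estimates below 0, against 49.9% of all genes. Within code JH133, with 2 libraries per genotype, the median was -0.02 and 20 of 38 estimates were below 0. Over all genes the median there was 0.02, with 48.8% below 0. Code JH133 includes control replicate 1, whose summed level of the members was low for its group, at 18560 CPM. Code JH139 holds cKO replicates 3 and 4 and code JH140 holds control replicates 3 and 4. Between these codes the members' median was -0.83 and 35 of 38 were below 0, against -0.08 and 53% for all genes. There code and genotype cannot be told apart. The lower median thus did not hold within code JH133. Without replicate 3 labelled cKO the median was -0.18, and leaving out each library in turn it ran from -0.62 to -0.18. Of the 15 myeloid markers 14 had estimates below 0, with a median of -0.55, 0 calls and 1 at an unadjusted p under 0.05. All 10 MuSC markers had estimates below 0, with a median of -0.66, 0 calls and 3 at an unadjusted p under 0.05. Of the 59 other lysosomal genes tested, 48 had estimates below 0 (median -0.28), whereas all 4 Schwann markers had estimates above 0. The part of cell make-up in the lower median was not tested.

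Confidence intervals at 3 DPI were wide. For Glb1 the estimate was 0.07 ± 0.33 with an interval of -0.64 to 0.79. Intervals were -1.04 to 0.27 for Lamp1, -1.04 to 0.33 for Lamp2, -1.08 to 0.23 for Ctsb, -0.87 to 0.31 for Ctsd, -0.81 to 0.35 for Ctsl and -0.70 to 1.03 for Tfeb. For Atp6v0c, which had 18 and 0 counts in replicates 2 and 3 labelled cKO, the estimate was -1.17 with an interval of -3.29 to 0.95, and it ran from -3.35 to -0.61 over the alternatives.

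The last comparison tested, on all 16 libraries, the interaction, which is the genotype effect at 3 DPI minus that in uninjured MuSCs. No member was called, against 0.0178% of all 16822 genes, and 3 members had an unadjusted p under 0.05, as did 5.74% of all genes. Ctsc had the largest difference, -2.15 ± 0.50 (adjusted p = 0.237). Its genotype estimate was 1.73 in uninjured MuSCs and -0.52 at 3 DPI, and over the alternatives its adjusted p ran from 0.02 in DESeq2, which called it, to 0.68. Ctsl (0.95 ± 0.38, adjusted p = 0.757) and Ctsa (0.90 ± 0.34, adjusted p = 0.73) differed the other way, with estimates nearer 0 at 3 DPI than in uninjured MuSCs. For Glb1 the difference was -0.47 ± 0.55 (adjusted p = 0.97). The median difference over the members was -0.03, against 0.04 for all genes.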

How the data were processed

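RNA-seq of sorted MuSCs was analysed in 16 libraries of 4 groups. Per the labels and the study's methods, RNA was depleted of ribosomal RNA and random-primed CORALL libraries were made. Reads were trimmed with Trim Galore 0.6.7, aligned with STAR to GRCm38 and quantified with Salmon 1.5.2. The STAR version was 2.6.1d in the submitters' processing notes, and the study's methods name a different one. The library preparation adds unique molecular identifiers. Whether they were used to remove duplicate reads is not given in the sources used here, and neither is the annotation release. The authors deposited estimated counts (expected counts) per gene symbol, and a table of them rescaled for transcript length.

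The members and lists were chosen with earlier results of these data known. Every member is named. Statistics are fullest for Glb1, Lamp1, Lamp2, Ctsb, Ctsd, Ctsl, Tfeb, members called anywhere and the 2 of smallest p in each comparison. For some of these only a range or an interval is printed in some comparisons. Of other lists, at most 6 called genes of smallest p were to be named, and some of these are not reported here. Endothelial and Schwann markers gave no call, and the neutrophil marker Csf3r rose after injury in the control libraries (log2 fold change 2.22).

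Counts were rounded, filtered with filterByExpr, TMM-scaled and tested with edgeR 4.0.16 (robust quasi-likelihood, Benjamini-Hochberg) in R 4.3.3, on the 8 libraries of each pair of groups or all 16 for the interaction. CPM use 1 set of TMM factors over 16 libraries. Each SE is the estimate over the square root of its F statistic. Alternatives were limma 3.58.1, DESeq2 1.42.0, other scalings and filters, the rescaled table, a replicate block and leaving out each library. Scripts were tested on simulated data. Confidence intervals come from the edgeR fit and include the spread between libraries, whereas the floors, at 3 counts, cover counting error only. Transcript lengths came from GENCODE and promoters from RefSeq.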

Additional observations from a re-analysis of the deposited data

Results flagged for a closer look

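In groups of 4 libraries, a library far from its group by Dixon's ratio was found in 10 of 156 groups of values, where chance gives about 5%. In uninjured control, replicate 1 had 14.6 CPM of Ctsh (others 3.69 to 4.55) and 26.7 CPM of Naglu (others 15.9 to 16.6), and replicate 4 had 82.2 CPM of Scarb2 (others 61.7 to 64.8). In uninjured cKO, replicate 2 had 81 CPM of Ctsd (others 88.4 to 88.9) and replicate 3 had 28.7 CPM of Gla (others 12.1 to 14.4). In control at 3 DPI, replicate 1 was low in Ctsa at 371 CPM (others 514 to 530), in Asah1 at 95.1 CPM (others 138 to 146) and in the summed level of the members at 18560 CPM. Among libraries labelled cKO at 3 DPI, replicate 1 was high in Ctsa at 499 CPM (others 326 to 355) and in Gaa at 164 CPM (others 67.9 to 84).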

How the results depend on the processing

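In uninjured MuSCs edgeR called 370 genes lower and 82 higher in cKO, with 4 members. The robust limma fit gave 142, 157 and 1, library size alone 212, 176 and 2, rescaling by length 11, 6 and 0, and all 16 libraries in one fit 70, 12 and 1. A minimum of 10 counts gave 190 higher and an adjusted p of 0.05 with no minimum fold 182. Leaving out a library gave 214 to 488 lower, 40 to 86 higher and 1 to 4 members. The log2 ratio of summed levels was -0.29 under library size alone and -0.33 in the rescaled table. At 3 DPI the genotype calls were 18 lower and 10 higher in limma, 17 and 5 in DESeq2, 3 lower in the fit of all 16 libraries, 1 higher within JH133 and, leaving out a library, 0 to 13 and 0 to 3, and the members' median was -0.019 within JH133 and -0.83 between JH139 (cKO) and JH140 (control). Estimates changed sign for Glb1 without a filter (-0.008) and, leaving out a library (-0.077 to 0.172), without control replicate 3 or cKO replicate 1, for Tfeb (-0.053 to 0.395) without control replicate 4 or cKO replicate 3, and within JH133 for Lamp1 (0.11), Lamp2 (0.10), Ctsd (0.083), Ctsl (0.26) and Tfeb (-0.48). After injury in control MuSCs 1 member, Ctsf, was lower under limma-voom, median-of-ratios factors, no filter, the replicate block and an adjusted p of 0.05, and 0 to 1 leaving out a library. The rescaled table called 1088 genes higher, and the fit of all 16 libraries 734 lower and 861 higher. In cKO MuSCs the injury calls were 473 lower and 547 higher in limma, 233 higher with 11 members in limma-voom, 425 and 568 in DESeq2, 109 and 174 in the rescaled table, 362 lower at an adjusted p of 0.05, 483 and 721 in the fit of all 16 libraries, and 134 to 513 and 214 to 803 leaving out a library, with a members' median of 1.41 to 1.99. Atp6v0c was at -0.14 in limma-voom. The control calls of Naglu, Neu1, Scarb2, Npc1, Atp6v1a and Atp6v0c were also lost in the fit of all 16 libraries. That of Npc1 was lost in the rescaled table too (adjusted p = 0.02 as rounded). The interaction gave 78 lower and 45 higher in limma, 1 lower in limma-voom, 15 and 9 with 1 member, Ctsc, in DESeq2, 6 and 2 at a minimum of 10 counts, 1 lower in the rescaled table, and 1 to 9 and 0 to 4 leaving out a library. Deviations of same-numbered libraries from their group means had correlations up to 0.11. In the uninjured comparison of genotypes, replicates 2 and 4 correlated best with their own number. Low correlations cannot exclude a pairing, and the main fits did not pair libraries. The replicate block gave 144 lower and 220 higher, with 12 members and without Gla, Gusb, Man2b1, Lipa and Atp6v0d2, for injury in cKO and 1 lower for the interaction. The cause of these changes was not tested. With library totals of 620406 to 1351095 counts, members at a few CPM, such as Ctsc, Ctsh, Ctsk and Atp6v0d2 in uninjured MuSCs, rest on few counts.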
